A study of Mus musculus with 9 samples.

Results

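The 39 genes described here encode the transforming growth factor-beta (TGF-beta) and bone morphogenetic protein (BMP) pathway: ligands, the proteins that store or block them, receptors, SMAD transducers, their inhibitors and the ID target genes. They were chosen by symbol for their place in the pathway. All 39 had probe sets assigned to 1 symbol on the array, and 33 of the 39 were measured well enough to be tested, among 12646 genes tested in all. RNA came from C2C12 cells, an established mouse myoblast line, grown in medium with 10% fetal bovine serum. The 3 groups were cells transfected with a control siRNA, an siRNA against Cugbp1 (current symbol Celf1) or an siRNA against Mbnl1, each with 3 arrays and with RNA taken 48 h after transfection. Both targets are RNA-binding proteins that act on pre-mRNA splicing and on mRNA, and both are studied in myotonic dystrophy. The number of siRNA sequences per target was not given in the sources used here, nor whether the 3 arrays of a group came from separate cultures, so p-values measure only the spread between these arrays. The question was how loss of either protein alters the myoblast transcriptome, here for the RNAs of this pathway.

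TGF-beta family ligands are secreted dimers, many of them held in the extracellular matrix, that join type II and type I receptor kinases on the cell surface. The activated type I receptor phosphorylates SMAD2 and SMAD3 (TGF-beta and activin branch) or SMAD1 and SMAD5 (BMP branch), which enter the nucleus with SMAD4, while SMAD6, SMAD7 and the SMURF ubiquitin ligases dampen the signal. In myoblasts, TGF-beta and myostatin restrain differentiation into myotubes, and BMP ligands can turn C2C12 cells towards the osteoblast lineage.

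Signals were intensities from the robust multi-array average (RMA) method, from whole-transcript exon arrays, with separate probe sets for different stretches of a gene. Array medians lay between 43.6 and 43.8 intensity units in the control group and between 42.3 and 42.9 in both siRNA groups. With its own siRNA, each target was lower than in controls, Celf1 at -1.46 and Mbnl1 at -1.35 (log2 change). Myoblast markers (Myod1, Myf5, Des and others) had summed intensities of 179209 to 181313 on the control arrays, 194144 to 200141 after Cugbp1 siRNA and 186130 to 201084 after Mbnl1 siRNA. The 8 genes did not move alike: 4 changes were upward and 4 downward after Cugbp1 siRNA, and 5 and 3 after Mbnl1 siRNA. Of the 8, 3 rose after Cugbp1 siRNA, and 1 rose and 1 fell after Mbnl1 siRNA. That is 37.5% and 25% passing the test described below, where 38.7% and 41.5% of all genes tested did. Markers of blood, vessel, epithelial and neural cells were dimmer: of 17 listed, 11 were tested, 8 of which fell after Cugbp1 siRNA and 6 after Mbnl1 siRNA. That is 72.7% and 54.5%, where 12.7% and 14.6% of all genes tested fell. Their sums were 42456 to 45209, 36678 to 39744 and 39307 to 40133 in the same order. Their median probe-set levels in controls ran from 3.86 (log2) for Ptprc to 7.99 for Krt14. Krt14 and Olig2 (7.62) lay above the filter of 6.997, and the other markers with probe sets lay below it.

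After either siRNA, more of the pathway's genes rose than fell, by modest amounts, except under 1 other scaling for Cugbp1 siRNA (4 higher and 6 lower, described with the scalings). After Cugbp1 siRNA, 13 of the 33 tested members rose and 2 fell (limma, Benjamini-Hochberg adjusted p under 0.05 over all 12646 genes). That is 45.5% of the members, against a background of 38.7% of all genes called (26% higher, 12.7% lower). After Mbnl1 siRNA, 18 members rose and 2 fell, 60.6% against a background of 41.5% (26.9% higher, 14.6% lower). The median log2 change over the 33 members was 0.10 after Cugbp1 siRNA and 0.19 after Mbnl1 siRNA, beside 0.05 and 0.04 over all genes tested. No member reached the 1.5-fold change that, together with a call, 0.854% and 1.64% of all genes passed. The largest change was that of Tgfb2 after Mbnl1 siRNA, 1.44-fold. Both comparisons use the same 3 control arrays, so a member that moves in both is not 2 separate observations. In bulk RNA, fewer cells of a type and less RNA per cell cannot be told apart.

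**Figure D1:**
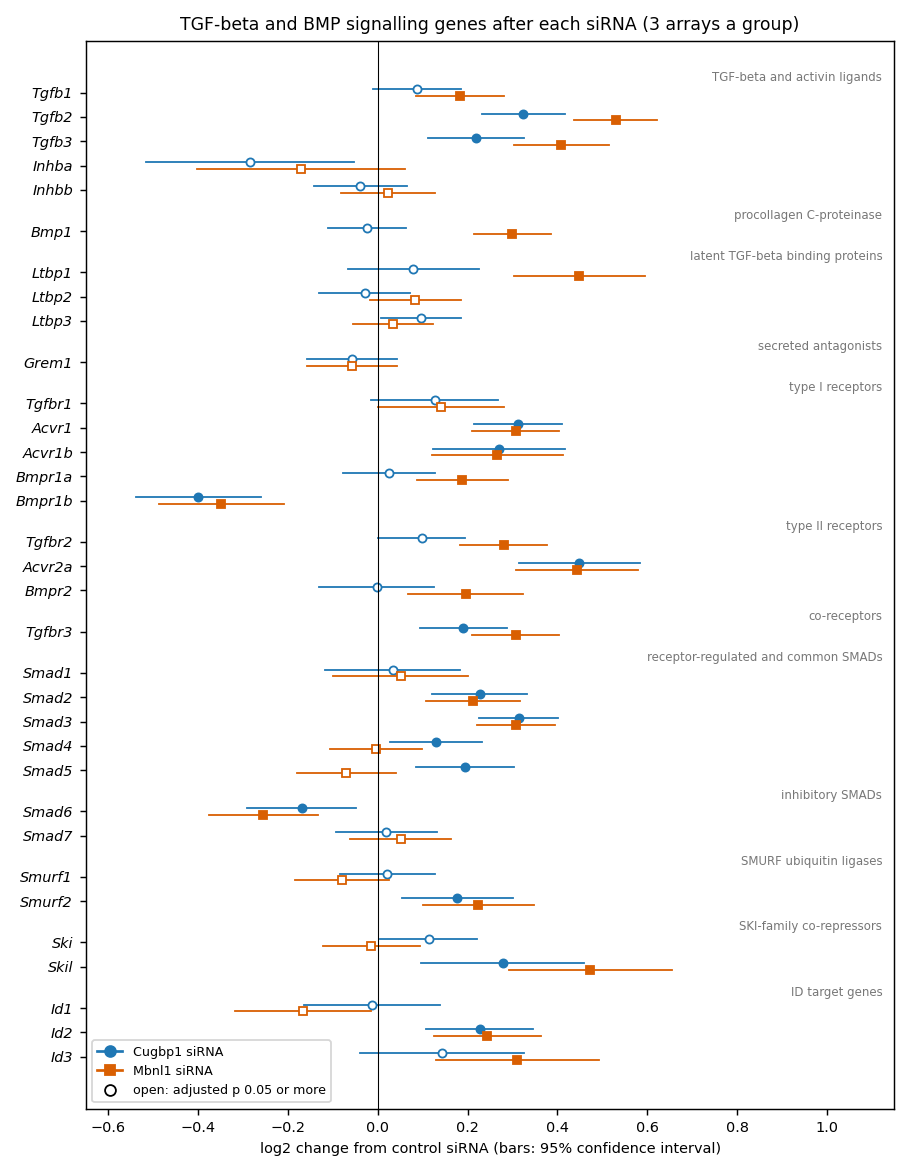
Log2 change from the control siRNA (horizontal axis, bars the 95% confidence interval, 3 arrays a group) for the 33 tested members, grouped by role, after Cugbp1 siRNA (blue circles) and Mbnl1 siRNA (orange squares), with filled symbols for adjusted p under 0.05. Tgfb2, Tgfb3, Skil, Ltbp1 and Acvr2a lie farthest to the right after Mbnl1 siRNA, and Bmpr1b lies farthest to the left after both.

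Direct comparison of the siRNA groups, which leaves the control arrays out of the difference, called 6 of 33 members (18.2%, against a background of 9.34% of all genes). Smad5 was higher after Cugbp1 siRNA than after Mbnl1 siRNA, and Tgfb2, Tgfb3, Bmp1, Ltbp1 and Tgfbr2 were lower (background 4.27% higher, 5.07% lower). The arrays of the 2 siRNA groups did not overlap for 15 of the 33 members, 5 with Cugbp1 siRNA above and 10 below, where 29.5% of all genes had no overlap (15.1% above, 14.4% below). The corresponding counts against control were 16 above and 2 below for Cugbp1 siRNA (all genes 48.8%, 32.9% above and 15.9% below) and 19 above and 4 below for Mbnl1 siRNA (all genes 57.5%, 37.3% above and 20.3% below).

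To show the start-site DNA of members on which these comparisons turn, promoters are printed for 4 genes that differed between the siRNAs (Tgfb2, Tgfbr2, Ltbp1, Smad5) and for 2 that rose by like amounts after both (Acvr2a, Smad3). Each runs 5′ to 3′ from 250 bases before to 50 bases after the start site in RefSeq on GRCm38.p6. Where RefSeq lists several starts (2 for Ltbp1, 3 for Smad5), the most upstream is shown. Capitals mark CAGAC or its reverse complement GTCTG, the core of the SMAD-binding element, and GGCGCC, a GC-rich sequence that SMAD proteins can bind. GGCGCC is its own reverse complement, and no match of it overlaps a CAGAC match in the promoters shown.
Tgfb2, chr1:186705940-186706239, minus strand: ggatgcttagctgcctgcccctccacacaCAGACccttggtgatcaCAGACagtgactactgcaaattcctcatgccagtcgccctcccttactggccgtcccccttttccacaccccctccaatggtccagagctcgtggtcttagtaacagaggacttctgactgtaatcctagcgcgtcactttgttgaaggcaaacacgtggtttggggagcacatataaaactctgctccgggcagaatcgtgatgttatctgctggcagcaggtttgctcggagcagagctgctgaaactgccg
Tgfbr2, chr9:116175314-116175613, minus strand: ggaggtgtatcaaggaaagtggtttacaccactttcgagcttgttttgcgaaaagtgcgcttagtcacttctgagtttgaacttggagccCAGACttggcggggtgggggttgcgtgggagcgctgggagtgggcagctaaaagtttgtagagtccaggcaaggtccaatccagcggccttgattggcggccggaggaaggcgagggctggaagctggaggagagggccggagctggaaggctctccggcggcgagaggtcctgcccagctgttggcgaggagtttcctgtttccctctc
Ltbp1, chr17:75005279-75005578, plus strand: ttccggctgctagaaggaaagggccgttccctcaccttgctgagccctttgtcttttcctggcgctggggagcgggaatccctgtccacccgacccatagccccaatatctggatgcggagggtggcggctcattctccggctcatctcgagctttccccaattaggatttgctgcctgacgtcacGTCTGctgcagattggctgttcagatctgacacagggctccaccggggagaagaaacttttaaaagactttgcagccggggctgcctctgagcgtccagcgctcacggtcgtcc
Smad5, chr13:56702760-56703059, plus strand: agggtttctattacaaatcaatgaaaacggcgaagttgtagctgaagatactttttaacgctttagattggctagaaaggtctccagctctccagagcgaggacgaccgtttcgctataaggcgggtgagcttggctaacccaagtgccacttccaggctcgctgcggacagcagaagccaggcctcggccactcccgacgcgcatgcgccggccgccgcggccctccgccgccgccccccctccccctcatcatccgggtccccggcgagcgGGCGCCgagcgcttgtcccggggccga
Acvr2a, chr2:48813859-48814158, plus strand: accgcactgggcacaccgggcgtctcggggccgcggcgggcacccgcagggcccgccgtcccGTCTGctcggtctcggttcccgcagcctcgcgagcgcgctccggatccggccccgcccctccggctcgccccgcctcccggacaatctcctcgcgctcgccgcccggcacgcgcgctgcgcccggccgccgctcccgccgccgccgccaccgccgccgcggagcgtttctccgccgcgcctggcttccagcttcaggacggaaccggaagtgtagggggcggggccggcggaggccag
Smad3, chr9:63757945-63758244, minus strand: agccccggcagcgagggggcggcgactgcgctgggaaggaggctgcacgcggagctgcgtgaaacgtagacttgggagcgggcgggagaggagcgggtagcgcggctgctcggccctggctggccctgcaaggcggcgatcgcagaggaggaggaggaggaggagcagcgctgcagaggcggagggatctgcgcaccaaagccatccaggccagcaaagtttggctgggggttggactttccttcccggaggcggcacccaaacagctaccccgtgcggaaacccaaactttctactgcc

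Tgfb2 holds 2 CAGAC matches, Tgfbr2, Ltbp1 and Acvr2a hold 1 each, Smad5 holds 1 GGCGCC, and Smad3 holds neither. CAGAC on either strand is in 49.6% of all 32851 promoters of this length and in 17 of the 34 promoters listed for the 28 members matched in RefSeq's table. GGCGCC is in 11.9% of all promoters and in 10 of those 34 (29.4%). GC content of the promoters shown ran from 54.3% in Tgfb2 to 80.3% in Acvr2a, beside a median of 52.7% over all promoters. These matches are a description of letters, not of binding.

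Of the 5 TGF-beta and activin ligands tested, Tgfb2 and Tgfb3 rose after both siRNAs and Tgfb1 after Mbnl1 siRNA, except that Tgfb3 no longer passed after Cugbp1 siRNA, nor Tgfb1 after Mbnl1 siRNA, with arrays centred on bright named probe sets (0.12, adjusted p = 0.0546, and 0.07, adjusted p = 0.289) or with no filter (0.15, adjusted p = 0.053, and 0.13, adjusted p = 0.0501). Tgfb2, a secreted TGF-beta isoform, had gene values (median-polish summary of its 15 probe sets above the filter, log2 intensity) of 7.996, 8.03 and 8.001 on the control siRNA arrays, 8.37, 8.29 and 8.34 after Cugbp1 siRNA and 8.58, 8.50 and 8.54 after Mbnl1 siRNA. The 3 groups did not overlap, with controls lowest and Mbnl1 siRNA highest. Its log2 change was 0.32 ± 0.04 (SE, n = 3 arrays a group) after Cugbp1 siRNA (adjusted p = 0.00062) and 0.53 ± 0.04 after Mbnl1 siRNA (adjusted p = 2.73e-05).

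Tgfb3, another TGF-beta isoform, read 9.68, 9.72 and 9.78 on the control siRNA arrays, 9.87, 10.02 and 9.94 after Cugbp1 siRNA and 10.11, 10.14 and 10.14 after Mbnl1 siRNA. Its groups also did not overlap and stood in the same order. Tgfb3 rose by 0.22 ± 0.05 (SE) after Cugbp1 siRNA (adjusted p = 0.00663) and by 0.41 ± 0.05 after Mbnl1 siRNA (adjusted p = 0.000223). Tgfb1, the isoform most studied in muscle fibrosis, rose by 0.18 ± 0.04 after Mbnl1 siRNA (adjusted p = 0.0085), a call lost without Mbnl1 siRNA array 3 (adjusted p = 0.0574). After Cugbp1 siRNA its change was 0.09 ± 0.04 (adjusted p = 0.136), with all Cugbp1 siRNA arrays above all controls. Inhba, which encodes the activin A subunit, was at -0.29 ± 0.10 (SE; 95% confidence interval -0.52 to -0.05) after Cugbp1 siRNA, just short of the threshold (adjusted p = 0.0521), and at -0.17 after Mbnl1 siRNA. Inhba was called lower after Cugbp1 siRNA under 3 of the 4 other scalings. Inhbb, the activin B subunit, lay at -0.04 and 0.02.

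The next 4 genes encode a matrix-processing enzyme (Bmp1) and the latent TGF-beta binding protein family (Ltbp1, Ltbp2 and Ltbp3). Of these, Bmp1 and Ltbp1 rose after Mbnl1 siRNA. After Cugbp1 siRNA both lay near control (with arrays centred on bright named probe sets, Bmp1 was called lower there). Bmp1, despite its name a metalloproteinase that cleaves procollagen and other matrix proteins, read 10.85, 10.80 and 10.84 on the control siRNA arrays, 10.82, 10.79 and 10.81 after Cugbp1 siRNA and 11.14, 11.10 and 11.15 after Mbnl1 siRNA. Control and Cugbp1 siRNA arrays overlapped, and all Mbnl1 siRNA arrays lay above both. Bmp1 rose by 0.30 ± 0.04 (SE) after Mbnl1 siRNA (adjusted p = 0.000381), against -0.02 ± 0.04 after Cugbp1 siRNA (adjusted p = 0.647).

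Ltbp1, a latent TGF-beta binding protein that tethers the inactive ligand to the matrix, read 9.75, 9.81 and 9.68 on the control siRNA arrays, 9.69, 9.85 and 9.93 after Cugbp1 siRNA and 10.14, 10.24 and 10.20 after Mbnl1 siRNA. Cugbp1 siRNA array 1 lay within the control range and arrays 2 and 3 above it, while the Mbnl1 siRNA arrays were all higher still. Ltbp1 rose by 0.45 ± 0.07 (SE) after Mbnl1 siRNA (adjusted p = 0.000689), and its change after Cugbp1 siRNA was 0.08 ± 0.07 (adjusted p = 0.353). The related Ltbp2 (-0.03 after Cugbp1 siRNA, 0.08 after Mbnl1 siRNA) and Ltbp3 (0.10 and 0.03) did not pass the test in either comparison. Grem1, a secreted BMP antagonist, lay at -0.06 and -0.06, with 95% confidence intervals of -0.16 to 0.04 and -0.16 to 0.04.

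Of the 5 type I receptors, Acvr1 and Acvr1b rose after both siRNAs, Acvr1b not under either scaling on bright named probe sets. Acvr1, a type I receptor of the BMP branch, read 9.43, 9.42 and 9.38 on the control siRNA arrays, 9.67, 9.74 and 9.75 after Cugbp1 siRNA and 9.67, 9.77 and 9.71 after Mbnl1 siRNA. All 6 siRNA arrays lay above all controls, and the siRNA groups overlapped. It rose by 0.31 ± 0.04 (SE) after Cugbp1 siRNA (adjusted p = 0.000874) and 0.31 ± 0.04 after Mbnl1 siRNA (adjusted p = 0.000624).

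Acvr1b, the activin type I receptor, read 7.69, 7.75 and 7.50 on the control siRNA arrays, 7.83, 7.97 and 7.96 after Cugbp1 siRNA and 7.91, 7.91 and 7.91 after Mbnl1 siRNA. Again the siRNA arrays all exceeded the controls and overlapped each other. Its changes were 0.27 ± 0.07 (SE; adjusted p = 0.0105) and 0.27 ± 0.07 (adjusted p = 0.00961), and the latter call was lost without Mbnl1 siRNA array 1 (adjusted p = 0.0683). Bmpr1a, a BMP type I receptor, rose after Mbnl1 siRNA (0.19 ± 0.05, adjusted p = 0.00879) and lay at 0.02 ± 0.05 after Cugbp1 siRNA. With arrays centred on bright named probe sets that rise did not pass (0.07, adjusted p = 0.148). The difference between the siRNAs for Bmpr1a missed the threshold (-0.16 ± 0.05, adjusted p = 0.0514). Both scalings on bright named probe sets called Bmpr1a lower after Cugbp1 siRNA than after Mbnl1 siRNA (adjusted p = 0.0483 and 0.036). Tgfbr1, the TGF-beta type I receptor, lay at 0.13 and 0.14 without passing the test.

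Bmpr1b was the receptor that fell. It read 9.93, 9.90 and 9.90 on the control siRNA arrays, 9.65, 9.48 and 9.41 after Cugbp1 siRNA and 9.54, 9.51 and 9.65 after Mbnl1 siRNA. All siRNA arrays lay below all control arrays. It fell by 0.40 ± 0.06 (SE) after Cugbp1 siRNA (adjusted p = 0.00142) and by 0.35 ± 0.06 after Mbnl1 siRNA (adjusted p = 0.00195). That value rests on the 3 of its 18 probe sets above the filter; the other 15 had mean levels of 2.55 to 6.66 (log2), and with all 18 used the changes were -0.26 (adjusted p = 0.0316) and -0.15 (adjusted p = 0.139). The markers of other cell types described above moved down in the same samples, and their part in the result was not tested.

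All 3 tested type II receptors rose after Mbnl1 siRNA (Bmpr2 not with arrays centred on bright named probe sets), and Acvr2a also rose after Cugbp1 siRNA. Acvr2a, the type IIA receptor for activins and myostatin, read 7.72, 7.78 and 7.69 on the control siRNA arrays, 8.05, 8.22 and 8.28 after Cugbp1 siRNA and 8.16, 8.15 and 8.23 after Mbnl1 siRNA. The siRNA arrays stood well above the controls and overlapped each other. Its rise was 0.45 ± 0.06 (SE) after Cugbp1 siRNA (adjusted p = 0.000774) and 0.44 ± 0.06 after Mbnl1 siRNA (adjusted p = 0.000509), 1.36-fold in both cases.

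Tgfbr2, the TGF-beta type II receptor, read 9.46, 9.53 and 9.46 on the control siRNA arrays, 9.56, 9.58 and 9.61 after Cugbp1 siRNA and 9.73, 9.82 and 9.75 after Mbnl1 siRNA. Both siRNA groups lay above the controls, and the Mbnl1 siRNA arrays were the highest. Tgfbr2 rose by 0.28 ± 0.04 (SE) after Mbnl1 siRNA (adjusted p = 0.000926), and its change after Cugbp1 siRNA was 0.10 ± 0.04 (adjusted p = 0.0977). Bmpr2, the BMP type II receptor, rose by 0.20 ± 0.06 after Mbnl1 siRNA (adjusted p = 0.0212) and lay at 0.00 after Cugbp1 siRNA. The Bmpr2 call was lost without control array 2, Mbnl1 siRNA array 2 or Mbnl1 siRNA array 3 (adjusted p up to 0.065). Between the siRNAs, Bmpr2 differed by -0.20 ± 0.06 (Cugbp1 siRNA minus Mbnl1 siRNA), short of the threshold (adjusted p = 0.0594). Both scalings on bright named probe sets called that difference (adjusted p = 0.038 and 0.0393). Tgfbr3 (betaglycan), a co-receptor that presents TGF-beta2, rose after both, by 0.19 ± 0.04 (adjusted p = 0.00796) and 0.31 ± 0.04 (adjusted p = 0.000601). The former call was lost without control array 3 or Cugbp1 siRNA array 3 (adjusted p = 0.0542 and 0.118). It was also lost under both scalings on bright named probe sets, centring (0.08, adjusted p = 0.171) and quantile normalisation (0.09, adjusted p = 0.158).

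Among the signal-transducing SMADs, those of the TGF-beta branch (Smad2, Smad3) rose after both siRNAs, Smad2 not under some scalings, and Smad5 of the BMP branch differed between the siRNAs. Smad3 read 8.80, 8.81 and 8.84 on the control siRNA arrays, 9.10, 9.12 and 9.17 after Cugbp1 siRNA and 9.14, 9.11 and 9.11 after Mbnl1 siRNA. All siRNA arrays exceeded the controls and the siRNA groups overlapped. Smad3 rose by 0.31 ± 0.04 (SE) after Cugbp1 siRNA (adjusted p = 0.000549) and 0.31 ± 0.04 after Mbnl1 siRNA (adjusted p = 0.000352).

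Smad2 read 9.32, 9.18 and 9.18 on the control siRNA arrays, 9.42, 9.47 and 9.47 after Cugbp1 siRNA and 9.44, 9.43 and 9.44 after Mbnl1 siRNA. Its siRNA arrays too were all above the controls. It rose by 0.23 ± 0.05 (SE; adjusted p = 0.00536) and 0.21 ± 0.05 (adjusted p = 0.006). With arrays centred on bright named probe sets neither rise passed (0.09, adjusted p = 0.0903, and 0.09, adjusted p = 0.0988), nor did that after Mbnl1 siRNA with quantile normalisation over them (0.10, adjusted p = 0.0527). Of its probe sets, 2 are annotated under an older clone name and were joined to Smad2 through RefSeq synonyms.

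Smad5 read 8.80, 8.89 and 8.85 on the control siRNA arrays, 9.03, 8.99 and 9.10 after Cugbp1 siRNA and 8.80, 8.71 and 8.82 after Mbnl1 siRNA. Cugbp1 siRNA arrays were above every control and every Mbnl1 siRNA array, and the Mbnl1 siRNA arrays overlapped the controls. Smad5 rose by 0.19 ± 0.05 (SE) after Cugbp1 siRNA (adjusted p = 0.0124; 0.0588 without Cugbp1 siRNA array 3) and lay at -0.07 ± 0.05 after Mbnl1 siRNA (adjusted p = 0.276). The rise was not called under either scaling on bright named probe sets, centring (0.09, adjusted p = 0.134) or quantile normalisation (0.12, adjusted p = 0.0941). Both of these called Smad5 lower after Mbnl1 siRNA (-0.18, adjusted p = 0.0078, and -0.15, adjusted p = 0.039). Smad1, its partner in the BMP branch, lay at 0.03 and 0.05. Smad4, the common SMAD, passed after Cugbp1 siRNA (0.13 ± 0.05, adjusted p = 0.0473) and lay at 0.00 after Mbnl1 siRNA. That Smad4 call was lost on leaving out any of the 9 arrays (adjusted p 0.0539 to 0.114), under 3 of the 4 other scalings, with no filter and in a fit of only the 2 groups compared.

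Smad6, an inhibitory SMAD, was called lower after both siRNAs, but not under either other filter. Its changes were -0.17 ± 0.05 (SE) after Cugbp1 siRNA (adjusted p = 0.0338) and -0.25 ± 0.05 after Mbnl1 siRNA (adjusted p = 0.00487). The first was lost without control array 2 or 3 or without any of the Cugbp1 siRNA arrays (adjusted p up to 0.205), with arrays centred on their median (-0.13, adjusted p = 0.0774) and in a fit of only the 2 groups compared. With all its probe sets used, neither call was made (-0.09, adjusted p = 0.437, and -0.10, adjusted p = 0.369), nor with the stricter filter (-0.32, adjusted p = 0.0595, and -0.30, adjusted p = 0.0751). Smad7, the inhibitory SMAD induced by TGF-beta, lay at 0.02 and 0.05, with 95% confidence intervals of -0.09 to 0.13 and -0.06 to 0.16. Smurf2, a ubiquitin ligase that targets SMADs and receptors, rose by 0.18 ± 0.06 (adjusted p = 0.0311) and 0.22 ± 0.06 (adjusted p = 0.01). Its call after Cugbp1 siRNA was lost without control array 2 or 3 or Cugbp1 siRNA array 2 or 3 (adjusted p up to 0.102), under both scalings on bright named probe sets (0.08, adjusted p = 0.234, and 0.12, adjusted p = 0.0851), with no filter and in a fit of only the 2 groups compared. That after Mbnl1 siRNA was lost with arrays centred on bright named probe sets (0.12, adjusted p = 0.0618). Smurf1 lay at 0.02 and -0.08.

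Skil, which encodes the SKI-family co-repressor SnoN and is itself a TGF-beta target, read 8.50, 8.46 and 8.28 on the control siRNA arrays, 8.56, 8.68 and 8.84 after Cugbp1 siRNA and 8.78, 8.95 and 8.93 after Mbnl1 siRNA. Both siRNA groups lay above the controls. Skil rose by 0.28 ± 0.08 (SE) after Cugbp1 siRNA (adjusted p = 0.0233; 0.0721 without Cugbp1 siRNA array 3) and by 0.47 ± 0.08 after Mbnl1 siRNA (adjusted p = 0.0016). The call after Cugbp1 siRNA was not made under either scaling on bright named probe sets (0.17, adjusted p = 0.104, and 0.17, adjusted p = 0.109). Ski lay at 0.11 and -0.01 and did not pass.

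The ID genes, BMP targets whose products block myogenic bHLH factors, did not move as a group. Id2 rose by 0.23 ± 0.05 (SE; adjusted p = 0.00904) and 0.24 ± 0.05 (adjusted p = 0.00532); its gene values were 9.71, 9.76 and 9.76 on the control siRNA arrays, 9.87, 10.05 and 9.99 after Cugbp1 siRNA and 9.94, 9.99 and 10.03 after Mbnl1 siRNA. After Cugbp1 siRNA its rise did not pass with arrays centred on bright named probe sets (0.12, adjusted p = 0.0523) or with the stricter filter (0.14, adjusted p = 0.085). Id3 read 8.33, 8.53 and 8.33 on the control siRNA arrays, 8.36, 8.60 and 8.64 after Cugbp1 siRNA and 8.78, 8.63 and 8.70 after Mbnl1 siRNA. All Mbnl1 siRNA values of Id3 exceeded the controls, and the Cugbp1 siRNA arrays overlapped them. Id3 rose by 0.31 ± 0.08 after Mbnl1 siRNA (adjusted p = 0.0128) and lay at 0.14 ± 0.08 after Cugbp1 siRNA (adjusted p = 0.186). That rise did not pass with arrays centred on bright named probe sets (0.20, adjusted p = 0.053). Id1, the most direct BMP target of the family, lay at -0.01 and at -0.17 (95% confidence interval -0.32 to -0.02, adjusted p = 0.0732). Under 3 of the 4 other scalings Id1 was called lower after Mbnl1 siRNA.

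The members that differed between the siRNAs are set out here, as Cugbp1 siRNA minus Mbnl1 siRNA. Ltbp1 differed by -0.37 ± 0.07 (SE; adjusted p = 0.00684) and Bmp1 by -0.32 ± 0.04 (adjusted p = 0.000808). All 40 probe sets of Ltbp1 above the filter were lower after Cugbp1 siRNA than after Mbnl1 siRNA, as were 22 of 27 for Bmp1. Smad5 differed by 0.26 ± 0.05 (adjusted p = 0.00874), higher on 14 of its 16 probe sets above the filter.

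Tgfb2 (-0.20 ± 0.04, adjusted p = 0.0135), Tgfb3 (-0.19 ± 0.05, adjusted p = 0.0347) and Tgfbr2 (-0.18 ± 0.04, adjusted p = 0.0272) differed by less. Their probe sets above the filter were lower after Cugbp1 siRNA in 13 of 15, 10 of 10 and 10 of 10 cases. The calls for Bmp1, Ltbp1 and Smad5 held on leaving out each of the 9 arrays in turn. Those for Tgfb2, Tgfb3 and Tgfbr2 held in 4, 3 and 4 of the 9, with adjusted p up to 0.0807, 0.127 and 0.118. Tgfb2 was lost without any control array, Cugbp1 siRNA array 2 or Mbnl1 siRNA array 1. Tgfb3 was lost without control array 3, Cugbp1 siRNA array 1 or 3, or any Mbnl1 siRNA array, and Tgfbr2 without Cugbp1 siRNA array 1 or 2 or any Mbnl1 siRNA array. Tgfb2 was also lost with the stricter filter (-0.18, adjusted p = 0.0625) and the mean of probe sets (-0.16, adjusted p = 0.0755), and Tgfb3 (-0.18, adjusted p = 0.0787) and Tgfbr2 (-0.18, adjusted p = 0.0707) with no filter. Acvr2a, Acvr1, Acvr1b and Smad3 differed between the siRNAs by 0.00, 0.01, 0.00 and 0.01, with 95% confidence intervals of -0.13 to 0.14, -0.09 to 0.10, -0.14 to 0.15 and -0.08 to 0.09.

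**Figure D2:**
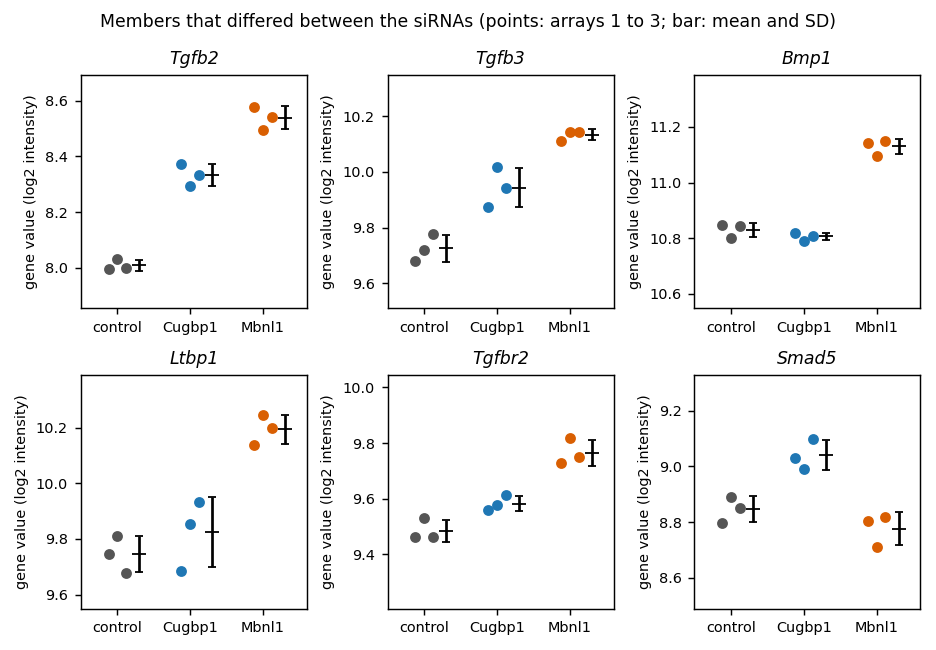
Gene value (log2 intensity, vertical axes of equal span) on each array for the 6 members that differed between the siRNAs, in control (grey), Cugbp1 siRNA (blue) and Mbnl1 siRNA (orange) cells; points are arrays and the bar beside them is the mean and SD of 3. Mbnl1 siRNA arrays are highest for Tgfb2, Tgfb3, Bmp1, Ltbp1 and Tgfbr2, and Cugbp1 siRNA arrays are highest for Smad5.

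How many members counted as higher or lower than control depended on how the arrays were set to a common level. With each array centred on the median of its bright named probe sets, a setting chosen after the data were seen, 4 members were called higher and 6 lower after Cugbp1 siRNA, and 11 higher and 7 lower after Mbnl1 siRNA. The members then called lower were Inhba, Inhbb, Bmp1, Grem1, Bmpr1b and Smad6 after Cugbp1 siRNA, and Inhba, Grem1, Bmpr1b, Smad5, Smad6, Smurf1 and Id1 after Mbnl1 siRNA. That centring moved the median of all genes from 0.05 to -0.04 and from 0.04 to -0.06. Under it, 10.8% of all genes were called higher and 25.4% lower after Cugbp1 siRNA, and 13.6% and 31% after Mbnl1 siRNA. Over the deposited values and 4 alternative scalings, Tgfb2, Acvr1, Acvr2a and Smad3 were higher in all 5 after Cugbp1 siRNA and Bmpr1b was lower. After Mbnl1 siRNA, 11 members were higher in all 5 (Tgfb2, Tgfb3, Bmp1, Ltbp1, Acvr1, Tgfbr2, Acvr2a, Tgfbr3, Smad3, Skil and Id2) and Bmpr1b and Smad6 were lower. The share of all genes called under all 5 scalings was not counted, so these counts have no background beside them. All 6 calls between the siRNAs were made under all 5 scalings, and no member was called in opposite directions. The scalings hardly moved this comparison, with a median of all genes between 0.0068 and 0.0163. They are therefore a weak check on these 6 calls, some of which were lost on leaving out arrays or with other filters, as given above.

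**Figure D3:**
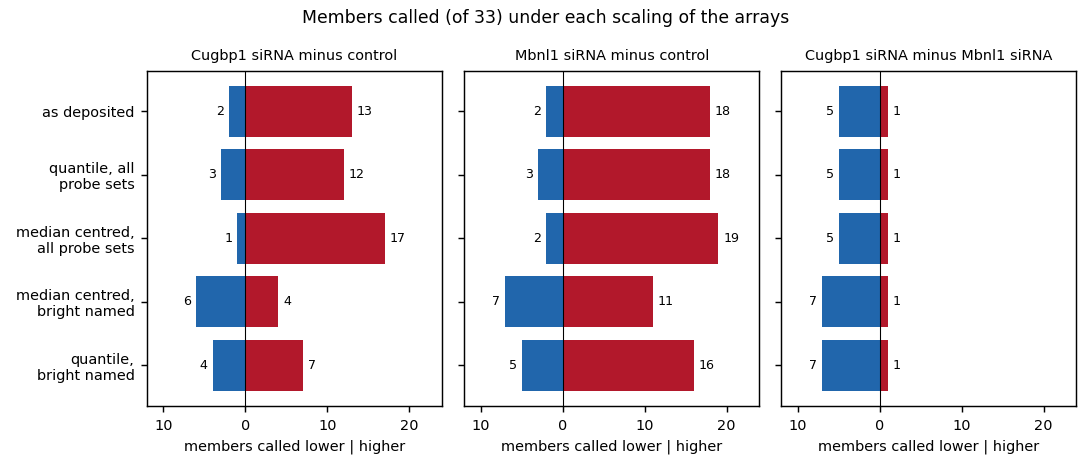
Number of the 33 members called higher (red, to the right) and lower (blue, to the left) in each comparison, under the deposited scaling and 4 others (vertical axis). Calls against control shift from 13 higher and 2 lower to 4 and 6 for Cugbp1 siRNA when arrays are centred on bright named probe sets, while the calls between the siRNAs stay at 1 higher and 5 to 7 lower. With that centring, calls over all genes after Cugbp1 siRNA shift from 26% higher and 12.7% lower to 10.8% and 25.4%.

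The gene value summarises the probe sets above the filter, which did not all move alike. For Tgfb2, the log2 change of single probe sets ran from -0.42 to 0.97 after Cugbp1 siRNA and from -0.51 to 1.13 after Mbnl1 siRNA, with 9 of 15 above 0.5 in the latter. All 10 Acvr2a probe sets above the filter, of 20 on the array, were higher after both siRNAs, by 0.16 to 1.39 and 0.10 to 1.49. Ltbp1 probe sets were higher after Mbnl1 siRNA in 39 of 40 cases and after Cugbp1 siRNA in 29 of 40. Probe sets of a gene share the arrays and are not replicates.

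**Figure D4:**
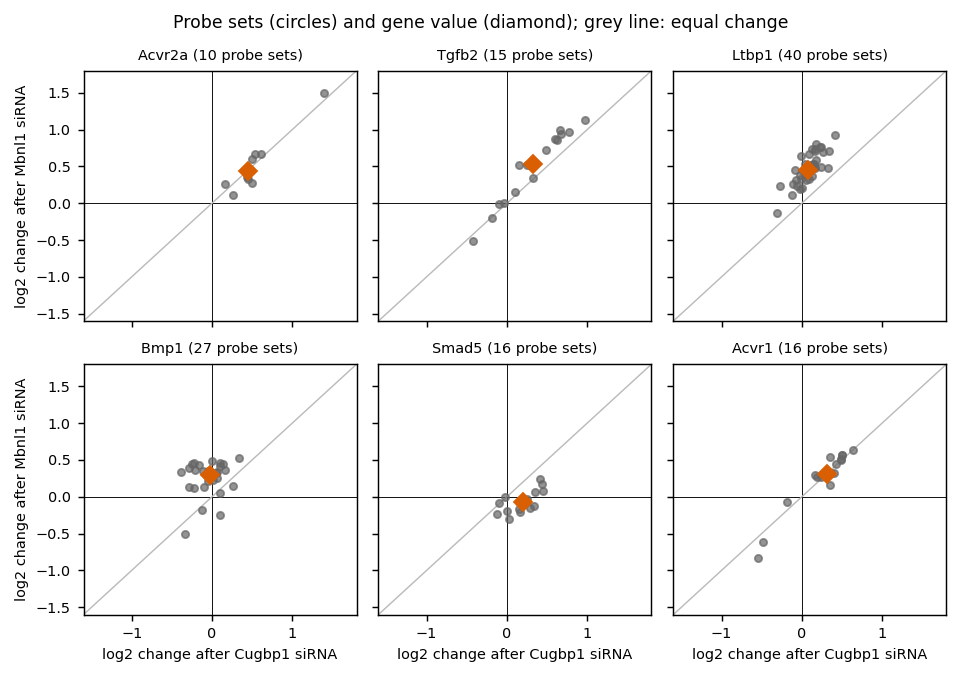
Log2 change from control after Cugbp1 siRNA (horizontal axis) and after Mbnl1 siRNA (vertical axis) for each probe set above the filter (circles) and for the gene value (diamond) of 6 members; both axes use the same 3 control arrays, so the scatter along the grey line of equal change holds shared control noise. All 40 Ltbp1 probe sets lie above that line, 14 of 16 Smad5 probe sets lie below it, and Tgfb2 and Acvr1 have a few probe sets below 0.

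A departure test asked whether a probe set changed by another amount than its gene, a measure taken within each array. Probe-set positions were not used here. Of 486 member probe sets tested, 27 departed after Cugbp1 siRNA (5.56%, background 3.75%) and 41 after Mbnl1 siRNA (8.44%, background 6.98%). Relative to the gene, 20 of 27 and 29 of 41 were downward, where 62.1% and 56.3% of the departures over all genes were. With limma's diffSplice the split was near even, 25 of 46 and 35 of 65 downward. Between the siRNAs, limma called 0 of 486 (background 0.0277%), with 41 at an unadjusted p under 0.05, while limma's diffSplice called 3, of which 2 were in Bmp1 and 1 in Smad7.

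The departures with the smallest adjusted p lay in Tgfb2, Tgfbr3, Acvr1 and Smad6. Probe set 4672124 of Tgfb2 read 10.24, 10.22 and 10.21 in controls, 9.72, 9.92 and 9.77 after Cugbp1 siRNA and 9.95, 9.47 and 9.71 after Mbnl1 siRNA. It went down while the gene value went up, with departures of -0.74 ± 0.10 (SE; adjusted p = 0.00507) and -1.04 ± 0.10 (adjusted p = 0.000888). Probe set 5489149 of Tgfbr3 departed by -0.58 ± 0.08 (adjusted p = 0.0046) and -0.77 ± 0.08 (adjusted p = 0.000888). In Acvr1, probe set 4645270 read 10.49, 10.40 and 10.75 in controls, 10.20, 10.06 and 9.75 after Cugbp1 siRNA and 9.70, 9.59 and 9.83 after Mbnl1 siRNA. Its departures were -0.86 ± 0.14 (adjusted p = 0.0114) and -1.15 ± 0.14 (adjusted p = 0.00215), and a second Acvr1 probe set, 4679060, departed by -0.80 ± 0.13 and -0.92 ± 0.13. Smad6 probe set 5191264 read 9.10, 9.76 and 9.43 in controls, 8.54, 8.20 and 7.72 after Cugbp1 siRNA and 7.998, 7.45 and 7.59 after Mbnl1 siRNA. Every siRNA array of that probe set was below every control, and it departed by -1.49 ± 0.20 after Mbnl1 siRNA (adjusted p = 0.00277) and by -1.11 ± 0.20 after Cugbp1 siRNA (adjusted p = 0.0154).

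The 6 members without a gene value were both BMP ligands listed (Bmp2 and Bmp4), myostatin (Mstn), the antagonists Fst and Nog, and the receptor Acvr2b. Of their probe sets, 0 of 5 for Mstn, 1 of 7 for Bmp2, 2 of 6 for Bmp4, 2 of 12 for Fst, 2 of 6 for Nog and 2 of 13 for Acvr2b were above the filter. Mstn probe sets had mean levels of 2.76 to 5.94 (log2), so this muscle growth inhibitor has no level here above the filter.

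The bright Bmp2 probe set, 4925642, read 10.94, 10.72 and 10.98 in controls, 10.52, 10.70 and 10.58 after Cugbp1 siRNA and 10.52, 10.38 and 10.42 after Mbnl1 siRNA. Bmp4 probe set 5403994 read 7.04, 6.55 and 7.08 in controls, 7.22, 7.37 and 7.59 after Cugbp1 siRNA and 7.86, 7.68 and 7.71 after Mbnl1 siRNA, and the other, 5470312, read 8.85, 9.11 and 8.89 in controls, 8.72, 8.95 and 9.04 after Cugbp1 siRNA and 8.89, 9.03 and 9.11 after Mbnl1 siRNA. So the Bmp4 probe sets disagreed: the Mbnl1 siRNA arrays lay above controls in the former and overlapped them in the latter. With no filter, the Bmp4 gene value was 0.54 ± 0.10 (SE) higher after Mbnl1 siRNA (adjusted p = 0.00691). Nog, the BMP antagonist noggin, was at -0.37 (adjusted p = 0.0213) and -0.40 (adjusted p = 0.0127), and Bmp2 at -0.24 after Mbnl1 siRNA (adjusted p = 0.0201). These values rest mainly on probe sets below the filter. The markers of other cell types, also mostly dim, moved down in the same samples, and their part was not tested. Fst (follistatin) and Acvr2b did not pass under that setting.

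**Figure D5:**
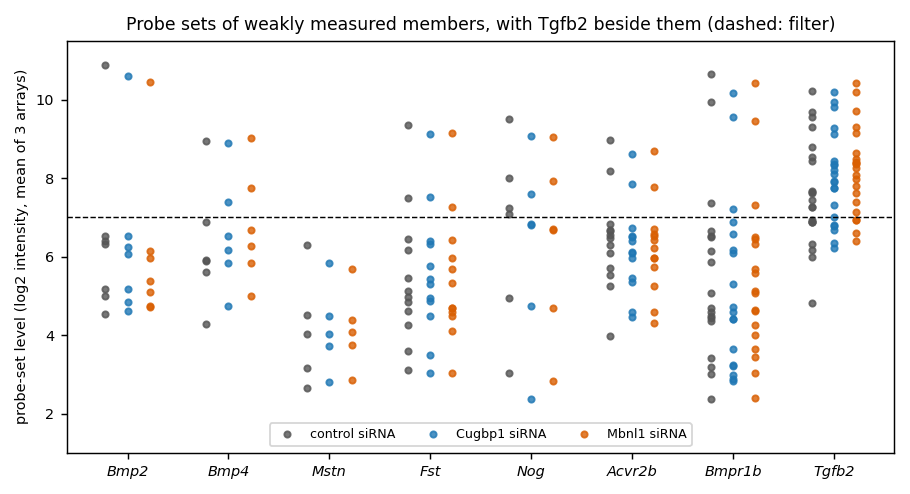
Probe-set level (log2 intensity, mean of 3 arrays) in control (grey), Cugbp1 siRNA (blue) and Mbnl1 siRNA (orange) cells for the 6 members without a gene value and for Bmpr1b, with Tgfb2 for comparison; each point is a probe set and the dashed line is the filter at 6.997. Most points of the first 7 genes lie below the line, including all of Mstn.

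The wider pathway, from lists of further genes, gave the following counts, with values for Cugbp1 siRNA and then Mbnl1 siRNA. Of 23 other intracellular regulators tested, 10 rose after Cugbp1 siRNA and 13 after Mbnl1 siRNA (43.5% and 56.5%, where 26% and 26.9% of all genes were called higher). The other genes did not pass. Those that rose included Nedd4l, a ubiquitin ligase for SMADs and receptors (0.50 and 0.40), Ldlrad4, an inhibitor of SMAD2 and SMAD3 phosphorylation (0.28 and 0.49), and Zfyve16, an endosomal SMAD anchor (0.28 and 0.37). With arrays centred on bright named probe sets, 5 of the 23 were called higher after Cugbp1 siRNA, and 5 higher and 2 lower after Mbnl1 siRNA. Of all genes, that centring called 10.8% and 13.6% higher and 25.4% and 31% lower. Under that centring Ldlrad4 was not called after Cugbp1 siRNA.

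Of 16 other extracellular regulators tested, 1 rose and 1 fell after Cugbp1 siRNA, and 5 rose and 4 fell after Mbnl1 siRNA (12.5% and 56.2% called, where 38.7% and 41.5% of all genes were). With arrays centred on bright named probe sets, 1 was higher and 5 lower after Cugbp1 siRNA, and 4 higher and 4 lower after Mbnl1 siRNA. Of all genes, that centring called 10.8% and 13.6% higher and 25.4% and 31% lower. Itgb8, an integrin subunit that activates latent TGF-beta, rose after both (0.49 and 0.90). Fbn1, the fibrillin to which latent TGF-beta complexes bind, and Dcn, a proteoglycan that binds TGF-beta, rose after Mbnl1 siRNA (0.65 and 0.48) and lay at 0.08 and 0.01 after Cugbp1 siRNA. Between the siRNAs, 6 of the 16 were lower after Cugbp1 siRNA (37.5%, where 5.07% of all genes were), namely Fbn1 (-0.57 ± 0.05, adjusted p = 7.11e-05), Dcn (-0.47), Itgb8 (-0.41), Fstl1 (-0.36), Nbl1 (-0.22) and Twsg1 (-0.22). Fstl1, Nbl1 and Twsg1 were named after their values were seen.

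Of 12 TGF-beta target genes tested, 2 rose and 1 fell after Cugbp1 siRNA and 4 rose after Mbnl1 siRNA (25% and 33.3% called, below the 38.7% and 41.5% of all genes). With arrays centred on bright named probe sets, 2 were lower after Cugbp1 siRNA, and 1 was higher and 5 lower after Mbnl1 siRNA. Of all genes, that centring called 10.8% and 13.6% higher and 25.4% and 31% lower. Ccn2 (connective tissue growth factor) rose after Mbnl1 siRNA (0.36 ± 0.06, adjusted p = 0.00142) and lay at -0.08 after Cugbp1 siRNA, a difference between siRNAs of -0.44 ± 0.06 (adjusted p = 0.00176). Tagln, a smooth-muscle actin-binding protein, fell after Cugbp1 siRNA (-0.31) and lay at -0.10 after Mbnl1 siRNA. Timp3 rose by 0.18 after Mbnl1 siRNA, a call lost when arrays were centred on bright named probe sets. Of 11 BMP target genes tested, 3 rose and 2 fell after Cugbp1 siRNA and 1 rose and 2 fell after Mbnl1 siRNA (45.5% and 27.3% called, where 38.7% and 41.5% of all genes were). With arrays centred on bright named probe sets, 1 was higher and 4 lower after Cugbp1 siRNA, and 1 higher and 5 lower after Mbnl1 siRNA (shares of all genes as just given). Hey1, a Notch and BMP target, rose after both (0.54 and 0.57). Sp7, an osteoblast factor, fell after both (-0.19 and -0.30), and Id4 fell after Cugbp1 siRNA (-0.24) and lay at -0.18 after Mbnl1 siRNA.

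Most of the other family ligands listed were too dim to be tested. Among the other ligands and receptors tested, those called were all lower, and most receptors were not called. Of 22 further ligands listed, 5 were tested, and 2 fell after each siRNA (40%, where 12.7% and 14.6% of all genes were called lower). These were Bmp3 after both (-0.28 and -0.32), Inha after Cugbp1 siRNA (-0.22) and Gdf7 after Mbnl1 siRNA (-0.23). With arrays centred on bright named probe sets, 3 and 4 of the 5 were called lower, where 25.4% and 31% of all genes were. Of 9 further receptors and co-receptors tested, 3 fell after Cugbp1 siRNA and 4 after Mbnl1 siRNA (33.3% and 44.4%, where 12.7% and 14.6% of all genes were called lower), among them Amhr2 (-0.22 and -0.37), Acvrl1 (-0.26 and -0.37) and, after Mbnl1 siRNA, Acvr1c (-0.32). With no filter, 2 and 1 of 10 were called lower (all genes 6.73% and 9.82%). With arrays centred on bright named probe sets, 4 and 6 of 9 were (all genes 25.4% and 31%). The markers of other cell types fell in the same samples, and their part in these values was not tested.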

How the data were processed

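The deposited values were RMA intensities on a linear scale for 1195555 probe sets on 9 arrays, which the authors made with Affymetrix Expression Console against mm9, per the submitters' processing notes. Array medians of the deposited values still differed, so the scaling was varied. Values were log2-transformed here. Probe sets were given symbols from the platform annotation (316997 with 1 symbol, 6571 with several, 871987 unlisted), and older symbols were updated through RefSeq (4213 of them). Probe sets with a mean at or above the 75th percentile (6.997, an intensity of 128) were used. A gene with at least 3 of them was tested, on the median polish of their values, with limma 3.58.1 in R 4.3.3 over all 3 groups and Benjamini-Hochberg adjustment over 12646 genes. Departures used probe set minus gene value in genes with at least 4 probe sets. Scripts were tested on simulated data. Alternatives covered scaling, filters, summary and test, and each array left out in turn. Array number limits the precision. The members, lists and naming rule were chosen with earlier results of these data known. Every member is accounted for, and array values are given for the 8 called members with the largest change in each comparison with control and for those called between the siRNAs. Of other lists up to 3 called genes, and of probe sets the 4 with the smallest adjusted p per comparison, were named.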

Additional observations from a re-analysis of the deposited data

Results flagged for a closer look

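For 6 members the response to the siRNAs differed, by a test of the difference itself (log2 change after Cugbp1 siRNA minus that after Mbnl1 siRNA, limma). The differences were -0.20 for Tgfb2, -0.19 for Tgfb3, -0.32 for Bmp1, -0.37 for Ltbp1, -0.18 for Tgfbr2 and 0.26 for Smad5. Those for Bmp1, Ltbp1 and Smad5 were called on leaving out each of the 9 arrays in turn. The calls for Tgfb2, Tgfb3 and Tgfbr2 held in only 4, 3 and 4 of the 9, and each was also lost under another filter. With the deposited scaling, Bmp1 and Ltbp1 lay near the control level in Cugbp1 siRNA cells and above it in Mbnl1 siRNA cells, Smad5 the other way round, and Tgfb2 and Tgfb3 rose after both but more after Mbnl1 siRNA. These places relative to control depended on the scaling. Under both scalings on bright named probe sets, Smad5 was called lower after Mbnl1 siRNA and was not called after Cugbp1 siRNA. With centring on them, after Cugbp1 siRNA, Bmp1 was called lower (-0.13, adjusted p = 0.0279) and Tgfb3 was not called.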

How the results depend on the processing

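Counts of members called against control moved with the scaling. Higher calls after Cugbp1 siRNA (13) became 4 with arrays centred on bright named probe sets and 7 with quantile normalisation over them, both added after the data were seen, and lower calls (2) became 6 and 4. Of all genes, 10.8% and 13.1% were then called higher (from 26%) and 25.4% and 21.5% lower (from 12.7%). Lower calls were 1 with arrays centred on their own median, with a stricter filter and in a fit of only the 2 groups compared. After Mbnl1 siRNA, centring on bright probe sets gave 11 higher (from 18) and 7 lower, quantile normalisation over them gave 5 lower and the stricter filter 1 lower (from 2). Of all genes, that centring called 13.6% higher (from 26.9%) and 31% lower (from 14.6%), and that quantile normalisation called 26.7% lower. Between the siRNAs, the mean of probe sets gave 2 higher (from 1), and no filter gave 3 lower (from 5).

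Leaving out each array in turn gave 8 to 14 higher and 1 to 2 lower after Cugbp1 siRNA (8 without Cugbp1 siRNA array 3). Of all genes, 18.3% were then called higher without that array (from 26%). After Mbnl1 siRNA there were 16 to 18 higher and 2 to 3 lower (16 without Mbnl1 siRNA array 3, where 19.8% of all genes were higher, from 26.9%). Between the siRNAs there were 1 higher and 2 to 6 lower. The lower calls were 2 without Mbnl1 siRNA array 1, where 3.09% of all genes were lower (from 5.07%). They were 3 without control array 3, either of Cugbp1 siRNA arrays 1 and 2, or Mbnl1 siRNA array 2 or 3. Departing member probe sets numbered 5 to 23 after Cugbp1 siRNA (27 with all arrays; 5 without Cugbp1 siRNA array 3) and 16 to 42 after Mbnl1 siRNA (41 with all; 16 without Mbnl1 siRNA array 3). With limma's diffSplice they numbered 46, 65 and 3. The cause was not tested. No direction reversed among called values.

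Arrays of the groups share numbers 1 to 3. Deviations of same-numbered arrays from their group means correlated between -0.10 and 0.12 and gave no pairing. With the number as a replicate block, 11 members were higher and 2 lower after Cugbp1 siRNA, 18 and 2 after Mbnl1 siRNA, and 1 and 5 between the siRNAs, with 19, 38 and 0 departing probe sets. Of all genes, the block called 23.6% higher and 12.3% lower, 25.3% and 14.1%, and 2.92% and 4%, in the same order. After Cugbp1 siRNA it lost the calls for Smad4 (adjusted p = 0.0729), Smurf2 (adjusted p = 0.05145) and Smad6 (adjusted p = 0.0507). It called Inhba lower there (adjusted p = 0.0213). The dim members (Mstn, Bmp2, Bmp4, Fst, Nog, Acvr2b and most Bmpr1b probe sets) are limited by signal over background.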
